A study of Mus musculus with 24 samples.

Results

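Mouse bone marrow-derived macrophages that had received interleukin 4 (IL-4) for 18 h were compared gene by gene with macrophages that had received bacterial lipopolysaccharide (LPS) alone for 18 h. All genes with enough counts were members, 12765 of the 43629 gene identifiers in the files. The genes that both stimuli raised over unstimulated cells, 991 in number, were read within the same comparison. The cells came from wild-type C57BL/6 mice and had been cultured for 7 days with CSF-1 at 20 ng/mL, the factor macrophages need to grow, which stayed in the medium of every group. The first group received 20 ng/mL IL-4 and the second received LPS, whose dose the labels give as 20 or 100 ng/mL without saying where each was used. Unstimulated cells of the same time points served as the baseline. Each group had 3 RNA sequencing libraries, so the direct comparison sets against each other 6 of the 24 libraries of the series. The spread was estimated from all 24. The unstimulated 18 h libraries and the 1 h libraries of IL-4, LPS and unstimulated cells were also read.

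IL-4 acts through a receptor that contains the IL-4 receptor alpha chain and activates the transcription factor STAT6 through JAK kinases. LPS acts through Toll-like receptor 4, which activates NF-kappaB and, through interferon beta made by the cells themselves, the interferon response. Macrophages given IL-4 are known for arginase and lectin receptors, and those given LPS for nitric oxide synthase, cytokines and itaconate, and these genes are widely used to name polarized states.

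The 6 libraries held between 5713462 and 8122945 counts, with a read for 15450 to 17808 genes. The 10 most abundant genes took 8.76% to 8.98% of the reads in IL-4 libraries and 11.8% to 13.7% in LPS libraries. Replicate 2 stood apart in both groups, since its chi-square per gene was 7.25 and 4.47 against the other IL-4 libraries, which differed by 3.18, and 8.81 and 10.9 against the other LPS libraries, which differed by 2.35. Without both replicates 2, 3937 genes were higher with IL-4 and 3832 lower. Of 10 macrophage markers none was at 0 in either group, and their summed level was 10400 to 10900 CPM in IL-4 libraries and 24700 to 26100 CPM in LPS libraries (CPM, counts scaled to the library total after TMM scaling). Summed markers of B cells, with Ighm the most abundant, were at 15.4 to 17.8 CPM in IL-4 libraries and 2.65 to 3.13 CPM in LPS libraries. Those of fibroblasts were at 0.305 to 0.556 CPM in IL-4 libraries, with 3 of 7 at 0, and 4.98 to 7.75 CPM in LPS libraries. Most of the LPS sum was a single gene, Dcn, at 3.73, 4.79 and 6.05 CPM. Those of endothelial cells were at 7.02 to 11.8 CPM and 19.8 to 28.9 CPM, with Pecam1 and Kdr the most abundant in LPS libraries. T cell markers summed to 5.04 to 5.14 CPM with IL-4 and 4.59 to 6.4 CPM with LPS, with Cd3d, Cd3e and Cd3g at 0 in both. Dendritic cell markers summed to 6.11 to 7.64 CPM with IL-4 and 13.2 to 19.8 CPM with LPS, with Ccr7 the most abundant. Of those tested, Ccr7 and Xcr1 were lower with IL-4, Zbtb46 was higher and Clec9a was not called. Markers of mast cells and basophils summed to 3.2 to 5.46 CPM and 0.567 to 1.25 CPM. Summed neutrophil markers overlapped between the groups, at 129 to 181 CPM with IL-4 and 125 to 179 CPM with LPS. Of those tested, Mpo, Camp, Ngp, Ltf and Cxcr2 were higher with IL-4, S100a8 was lower and S100a9 was not called. Summed eosinophil markers overlapped too, at 43.7 to 54.9 CPM and 38.6 to 67.7 CPM. Of those tested, Siglecf and Prg2 were higher with IL-4 and Ccr3 was lower. Erythroid markers summed to at most 0.111 and 0.189 CPM. The part of these other cells in the results was not tested, and in bulk libraries fewer cells of a type and less RNA per cell cannot be told apart.

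Across the 12765 genes, 8292 differed between IL-4 and LPS, which is 65.0% (edgeR's quasi-likelihood test, Benjamini-Hochberg adjusted p below 0.05). Of these, 4197 (32.9% of the genes tested) were higher with IL-4 and 4095 (32.1%) were lower. A difference of at least 2-fold was found for 1817 higher genes (14.2%) and 1634 lower genes (12.8%). The libraries of the groups did not overlap for 8028 genes (62.9%). With scaling by library size alone the split was 6672 higher and 2360 lower and the median over all genes was 0.36 on the log2 scale, against 0.01 with TMM, and none of the 197 named genes changed direction where it was called.

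**Figure D1:**
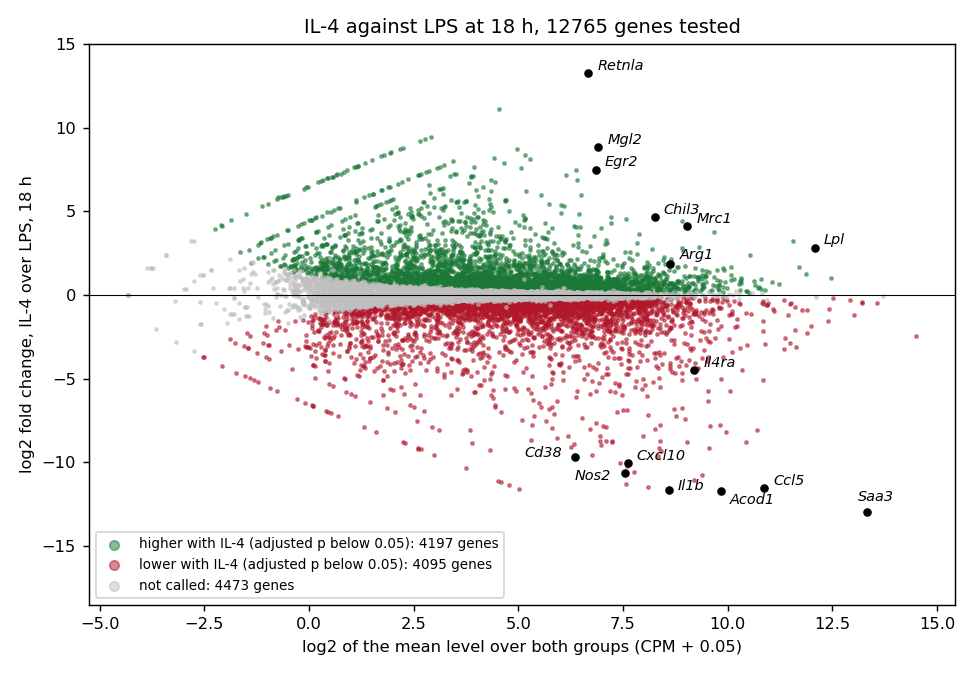
Each point is 1 of 12765 genes, with the log2 mean level over both groups on the horizontal axis and the log2 fold change of IL-4 over LPS at 18 h on the vertical axis. Green points were higher with IL-4 (4197 genes), red points lower (4095 genes) and grey points not called. The named genes Retnla and Saa3 lie at the upper and lower ends. Points with no reads in a group, Retnla among them, have a fitted fold change that is not a measured size.

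Retnla, which encodes the secreted protein RELMalpha, had 265.8, 202.8 and 144.5 CPM in the IL-4 libraries and no read in any LPS library. It was at least 1080-fold higher with IL-4, by a floor of 3 counts over the LPS group, and it had no read in unstimulated cells either. Rnase2a, an eosinophil-associated ribonuclease, had 52.26, 50.58 and 35.27 CPM with IL-4 and no read with LPS or in unstimulated cells, and was at least 245-fold higher. Mgl2, a galactose-type C-type lectin, had 255.5, 255.7 and 209 CPM with IL-4, against 0.5332, 0.4169 and 0.5674 CPM with LPS. The groups lay far apart, and the log2 fold change was 8.82 ± 0.22 (SE, adjusted p = 2.7e-24).

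The promoter of Retnla is shown because that gene stood at the top of the IL-4 side and its window held a STAT6-type palindrome. Windows of 250 bases before to 50 after the gene start were taken from RefSeq on GRCm38.p6 and both strands were searched. The capitals mark the match, TTC and GAA with any 4 bases between them, 145 bases before the start, in chr16:48842424-48842513 on the plus strand.
Retnla: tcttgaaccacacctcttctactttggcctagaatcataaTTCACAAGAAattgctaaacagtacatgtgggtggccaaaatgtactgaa
The same letters were found in 6.95% of all 32851 windows of the table and in 1 of 11 windows of the 12 genes with the largest increase, of which 9 were matched. A match is a description of letters and does not show that a factor binds there.

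Il1rl1, which encodes the receptor of interleukin 33, had 79.65, 65.84 and 68.41 CPM with IL-4, against 0.1777, 0 and 0.3782 CPM with LPS. Its ratio was 372, with an exact 95% interval of 127 to 1800 that covers counting error only, and unstimulated cells had 5.757, 4.772 and 6.27 CPM. Lrrc32, the surface protein GARP that holds latent TGF-beta, was higher with IL-4 by a ratio of 483 (134 to 4000). Map2, a microtubule-associated protein, was at 77.9 CPM with IL-4 and 0.261 CPM with LPS, a log2 fold change of 8.14 ± 0.28 (adjusted p = 6.2e-21). Scn3a (a sodium channel subunit), Il31ra (a chain of the interleukin 31 receptor) and Hr (a corepressor) had no read with LPS and were at least 76.1-fold, 68.5-fold and 65.2-fold higher with IL-4. The 3 genes differed in their baseline, since Hr had 0.6773, 1.342 and 1.097 CPM in unstimulated cells, whereas Scn3a and Il31ra were at or near 0 there.

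Not every gene on this side was raised by IL-4. Rasgrp3, a guanine nucleotide exchange factor for Ras, had 45.87, 35.65 and 46.73 CPM with IL-4, 0.1777, 0 and 0.1891 CPM with LPS, and 43.18, 45.64 and 55.49 CPM in unstimulated cells. IL-4 and unstimulated libraries overlapped, and its ratio of IL-4 to LPS was 331 (91.3 to 2730). The mitotic genes Cenpf (ratio 337, 60.3 to 13400) and Anln (ratio 262, 89.5 to 1270) were likewise almost silent with LPS, and both were lower with IL-4 than in unstimulated cells, by log2 changes of -1.37 and -0.92.

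Of 35 tested IL-4 effector and marker genes, 30 were higher with IL-4 and 4 were lower, with a median log2 fold change of 3.62 beside 0.01 over all genes. Egr2, a zinc finger transcription factor of the IL-4 response, had 245.9, 218.2 and 225.7 CPM with IL-4, against 1.777, 1.459 and 0.5674 CPM with LPS. It differed by 7.47 ± 0.19 on the log2 scale (adjusted p = 4.2e-24). Unstimulated cells lay between the groups at 34.2, 40.86 and 49.06 CPM, and Egr2 fell with LPS by 5.00 on the log2 scale. Irf4, an interferon regulatory factor known for its role in alternative activation, had 80.76, 62.94 and 71.92 CPM with IL-4, against 0.7109, 0.8339 and 1.324 CPM with LPS. It was higher by 6.20 ± 0.24.

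Mrc1, the mannose receptor, had 1179, 869.3 and 918.9 CPM with IL-4, against 50.3, 34.61 and 87.19 CPM with LPS. The difference of 4.10 ± 0.18 had contributions from both sides, since Mrc1 rose with IL-4 by 1.57 and fell with LPS by 2.53 on the log2 scale against unstimulated cells. Chil3, the chitinase-like protein Ym1, had 438.4, 655.1 and 675.7 CPM with IL-4, against 23.99, 24.81 and 21.56 CPM with LPS and 28.28, 31.92 and 31.98 CPM in unstimulated cells. The LPS libraries lay slightly below the unstimulated ones and the IL-4 libraries far above both, by 4.65 ± 0.14 over LPS, and reads of Chil3 may be shared with the near-identical Chil4. Fn1, fibronectin, was higher by 7.16 ± 0.29, Ptgs1, the constitutive cyclooxygenase, by 6.23 ± 0.25 and Clec10a, the galactose-type lectin most like Mgl2, by 5.71 ± 0.27. Pparg, a lipid-sensing nuclear receptor, averaged 87 CPM with IL-4 and 7.72 CPM with LPS.

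The 4 members lower with IL-4 were Il4ra, Tgm2, F13a1 and Slc7a2. Il4ra, the receptor chain through which IL-4 acts, had 50.32, 50.02 and 50.39 CPM with IL-4, against 1056, 1077 and 1264 CPM with LPS and 77.72, 81.13 and 74.77 CPM in unstimulated cells. The 3 groups did not overlap, with IL-4 lowest and LPS highest, and IL-4 was below LPS by a log2 fold change of -4.49 ± 0.11 (adjusted p = 1e-24). Tgm2, a transglutaminase often used as an IL-4 marker, averaged 274 CPM with IL-4 and 1220 CPM with LPS, a log2 fold change of -2.15. F13a1, the coagulation factor XIII subunit, averaged 3.12 and 6.76 CPM. Ccl22 was not called, and the chemokine Ccl17 was below the count filter with 39 reads summed over the IL-4 libraries, 4 over the LPS libraries and 0 over the unstimulated libraries.

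**Figure D2:**
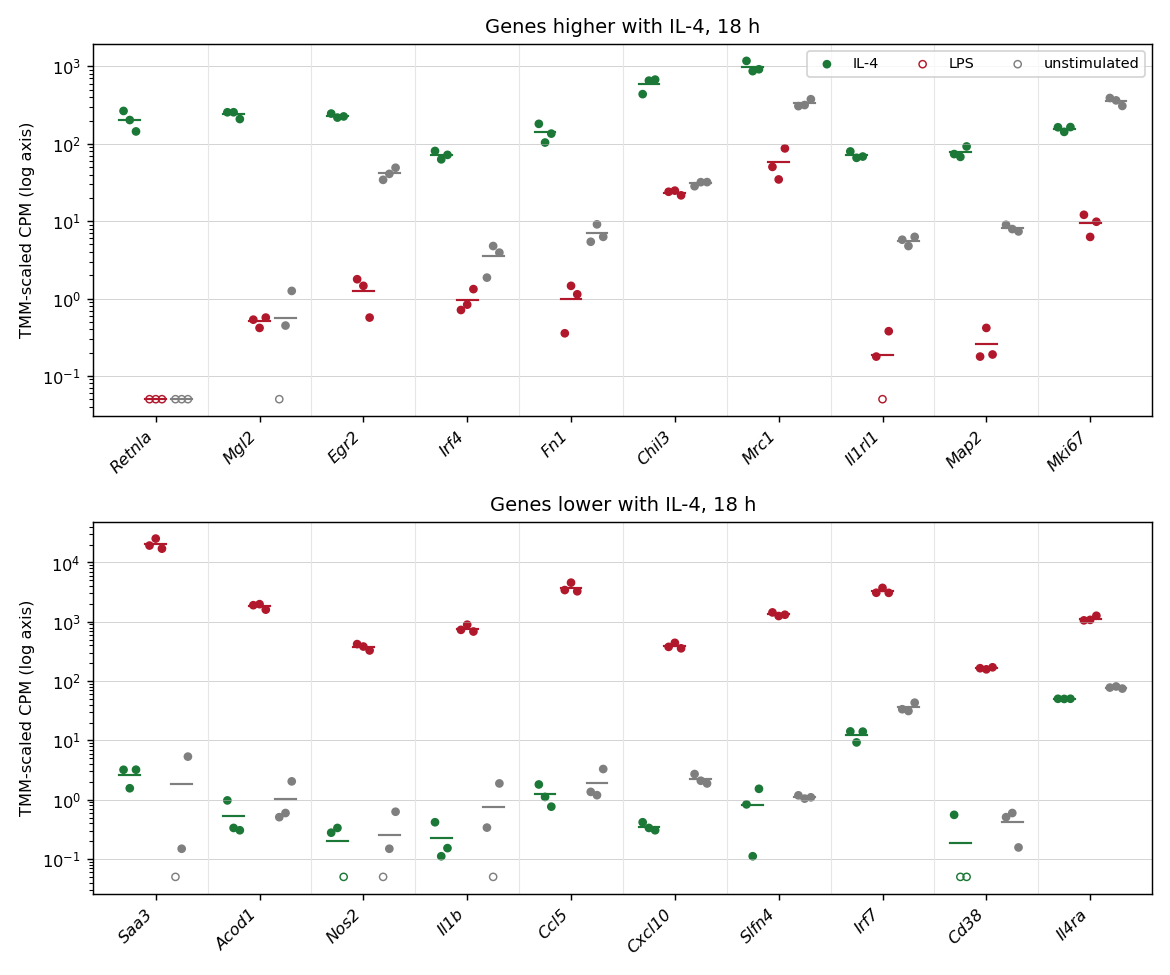
Level of named genes in each of 3 libraries per group at 18 h (TMM-scaled CPM, log axis), with IL-4 in green, LPS in red and unstimulated cells in grey; bars are means, and open circles at 0.05 are libraries with no read. In the upper panel the IL-4 libraries lie above all LPS libraries for each of the 10 genes, while each of the other 10 genes in the lower panel shows the reverse. Mki67 is highest in unstimulated cells.

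Among 37 transcription factors of macrophage polarization, 14 were higher with IL-4 and 18 lower, with a median of -0.23, but 18 were higher and 15 lower, with a median of 0.12, with scaling by library size alone. Egr1, an immediate early factor, was higher by 4.59 ± 0.31 at 12.8 CPM with IL-4 and 0.516 CPM with LPS. Irf7, the interferon-inducible regulator of interferon genes, had 14.18, 9.247 and 14.05 CPM with IL-4, against 3086, 3727 and 3075 CPM with LPS. Its log2 fold change was -8.06 ± 0.21, and it was lower with IL-4 than in unstimulated cells, at 33.53, 31.32 and 43.26 CPM. Nr1h3, the oxysterol receptor LXRalpha, had a log2 fold change of -2.98 ± 0.09.

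All 30 tested S phase genes and all 31 genes of G2 and mitosis were higher with IL-4 than with LPS, with medians of 2.95 and 4.78 on the log2 scale. Mki67, the proliferation antigen, had 163.6, 142.5 and 164.5 CPM with IL-4, against 12.09, 6.254 and 9.834 CPM with LPS and 390.8, 363.9 and 308.6 CPM in unstimulated cells. IL-4 libraries thus lay between the other groups, above LPS by 4.04 ± 0.20 (adjusted p = 5.4e-17) and below unstimulated cells by a log2 change of -1.18. Rrm2, the small subunit of ribonucleotide reductase, averaged 91.1 CPM with IL-4 and 1.38 CPM with LPS, and Uhrf1, which maintains DNA methylation, 104 and 2.35 CPM. Kif14, a mitotic kinesin, had no read with LPS and was at least 46.1-fold higher with IL-4, and Ube2c, of the anaphase-promoting machinery, was higher by 6.73 ± 0.33.

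Double-strand break and Fanconi repair genes followed, with 30 of 36 higher with IL-4, 1 lower and a median of 1.37. Fancd2, the ubiquitinated core of the Fanconi pathway, averaged 17.2 CPM with IL-4 and 0.433 CPM with LPS. Exo1, an end-resection nuclease, was higher by 5.54 ± 0.32 and the checkpoint kinase Chek1 by 4.70 ± 0.40. Fanca was the member that was lower, at 25.1 CPM with IL-4 and 42.4 CPM with LPS. Several of these genes are themselves expressed mainly in dividing cells. Of 29 p53 targets, 5 were higher and 12 lower, with a median of -0.22, but 11 were higher and 8 lower, with a median of 0.14, with scaling by library size alone. Sesn1 was higher by 1.77 ± 0.10, whereas Mdm2, the ubiquitin ligase of p53, and Ddb2 had log2 fold changes of -1.84 and -2.72. The death receptor Fas averaged 1.27 CPM with IL-4 and 11.5 CPM with LPS.

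All 30 tested cytosolic ribosomal protein genes were higher with IL-4, with a median of 1.03. Rpl10a averaged 385 CPM with IL-4 and 71.1 CPM with LPS, and Rpl3 654 and 146 CPM. Without scaling for composition all 30 were also higher, by a median of 1.39. LPS replicate 2 lay 0.39 above the other LPS libraries in the median of this list on the log2 scale, and without replicates 2 of both groups the count was again 30 of 30.

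The opposite end of the comparison held acute-phase, cytokine, chemokine and interferon-response genes. Saa3, an acute-phase serum amyloid protein made by macrophages, had 3.197, 1.56 and 3.207 CPM with IL-4, against 19280, 25270 and 17090 CPM with LPS. Its log2 fold change of -12.96 ± 0.31 was the largest decrease of any gene named here (adjusted p = 1.5e-24). Of 13 acute-phase, lipocalin and schlafen genes all 13 were lower with IL-4, with a median of -5.51. Slfn4, a schlafen family gene of myeloid cells, averaged 0.824 CPM with IL-4 and 1330 CPM with LPS, and Slfn1 was lower by a ratio of 2850 (976 to 13800); near-identical family members could share reads. Saa1 had no read with IL-4 and was at least 73.3-fold lower.

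Acod1, which makes itaconate from a TCA cycle intermediate, had 0.973, 0.3342 and 0.3054 CPM with IL-4, against 1903, 1982 and 1602 CPM with LPS. The log2 fold change was -11.70 ± 0.23 (adjusted p = 2.9e-26), while IL-4 and unstimulated libraries overlapped. Serpinb2, the plasminogen activator inhibitor 2, had no read with IL-4 and was at least 368-fold lower, and Apol9b, an apolipoprotein L family gene, was at least 341-fold lower. Ms4a4c, a membrane protein of the MS4A family, averaged 0.533 CPM with IL-4 and 1170 CPM with LPS.

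Inflammatory cytokines were mostly lower with IL-4, with 18 of 24 lower, 1 higher and a median of -3.10. Il1b, the main secreted interleukin 1, had 0.417, 0.1114 and 0.1527 CPM with IL-4, against 730.8, 892.9 and 684.8 CPM with LPS. Its log2 fold change was -11.64 ± 0.36 (adjusted p = 4.8e-22), and that of Il1a was -10.57 ± 0.21. Tnf had 9.174, 9.692 and 12.06 CPM with IL-4, against 120, 135.1 and 106.7 CPM with LPS, and a log2 fold change of -3.55 ± 0.14. Il6 was lower by a ratio of 70.4 (23.6 to 345) and Il12b, the shared subunit of interleukins 12 and 23, by a ratio of 88.2 (15.2 to 3540). The colony-stimulating factor gene Csf3 had no read with IL-4 and was at least 20.7-fold lower. The 1 member higher with IL-4 was Tgfb1, at 264 CPM with IL-4 and 224 CPM with LPS.

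Of 10 CXC chemokines, 9 were lower with IL-4 and 1 was higher, with a median of -7.33. Cxcl3, a neutrophil attractant, had no read with IL-4 or in unstimulated cells and 60.79, 64.83 and 67.52 CPM with LPS, which made it at least 487-fold lower with IL-4. Cxcl10, an interferon-induced T cell attractant, had 0.417, 0.3342 and 0.3054 CPM with IL-4, against 377.3, 441.9 and 356.9 CPM with LPS, a log2 fold change of -10.04 ± 0.31. IL-4 libraries were also below the unstimulated ones for Cxcl10, which had 2.709, 2.088 and 1.881 CPM. Cxcl9, another of the interferon-induced group, averaged 0.417 CPM with IL-4 and 144 CPM with LPS, and Cxcl16, a transmembrane chemokine and scavenger receptor, 32.8 and 786 CPM. Cxcl14 was the member higher with IL-4, at 39.9 CPM against 10.9 CPM with LPS.

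The promoters of Cxcl10, Cxcl3 and Ifit1bl1 are shown since they belong to genes of the LPS side and hold the letters of interferon-response or kappaB elements. Capitals mark matches on either strand to an interferon-stimulated response element, GAAA and GAAA with any 2 bases between them, or to a kappaB element, GGG and TTCC with any 3 bases between them. In Cxcl10, chr5:92348944-92349139 on the minus strand, the first capitals are the interferon element 213 bases before the start, and the other two are kappaB elements 159 and 104 bases before it. In Cxcl3, chr5:90785988-90786100 on the plus strand, the first capitals are overlapping kappaB matches on opposite strands, 73 and 72 bases before the start, and the next is a match 50 bases before it. In Ifit1bl1, chr19:34602023-34602112 on the minus strand, the capitals are the interferon element read on the other strand, 104 bases before the start.
Cxcl10: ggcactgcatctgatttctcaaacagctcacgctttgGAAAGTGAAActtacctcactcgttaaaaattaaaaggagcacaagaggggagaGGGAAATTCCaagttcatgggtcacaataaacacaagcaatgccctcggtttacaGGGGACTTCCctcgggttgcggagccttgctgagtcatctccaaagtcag
Cxcl3: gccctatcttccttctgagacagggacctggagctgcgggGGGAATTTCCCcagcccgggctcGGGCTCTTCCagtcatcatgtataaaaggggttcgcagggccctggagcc
Ifit1bl1: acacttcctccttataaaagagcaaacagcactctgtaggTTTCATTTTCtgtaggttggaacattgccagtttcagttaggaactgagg
The interferon element letters were in 3.44% of all windows and the kappaB letters in 5.56%. Of the 12 genes with the largest decrease 10 were matched, with 13 windows, and 3 of the genes held the interferon element letters and 1 held the kappaB letters. No match says only that the letters are not in the window.

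All 34 tested type I interferon response genes were lower with IL-4, with a median of -4.97. Ifit1bl1, of the interferon-induced family with tetratricopeptide repeats, had 0.139, 0.1114 and 0.3054 CPM with IL-4, against 545.6, 602 and 498.7 CPM with LPS. Its log2 fold change was -11.44 ± 0.16 (adjusted p = 1.6e-29). Oasl1 averaged 1.09 CPM with IL-4 and 676 CPM with LPS, Ifi44 0.519 and 250 CPM, and Ifit3 2.72 and 1500 CPM, where Ifit3 and the near-identical Ifit3b may share reads. Stat2, a factor that carries the interferon signal, had a log2 fold change of -4.08 ± 0.10.

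Guanylate-binding proteins and immunity-related GTPases, which act on vacuoles that hold microbes, were lower in 14 of 14 cases with a median of -6.35. Iigp1 averaged 0.287 CPM with IL-4 and 152 CPM with LPS, and Gbp2b 0.584 and 248 CPM; several of these genes have close copies that could share reads. MHC class I and immunoproteasome genes were lower in 20 of 20 cases with a median of -2.53. H2-Q7 averaged 2.52 CPM with IL-4 and 326 CPM with LPS and H2-T22 46.3 and 874 CPM, and H2-Q6 and H2-Q7 are near-identical.

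Receptors and signal components of the LPS pathway differed too. Of 19 Toll-like receptors and LPS co-receptors, 17 were lower with IL-4 and none was higher, with a median of -1.27. Tlr2, the receptor of bacterial lipopeptides, averaged 7.4 CPM with IL-4 and 193 CPM with LPS, and Tlr9, of unmethylated DNA, 2.32 and 35.4 CPM. Tlr4, the LPS receptor itself, was one of the 2 members not called, at 83.2 CPM with IL-4 and 87.3 CPM with LPS; Irak1 was the other. Of 22 NF-kappaB feedback genes, 18 were lower, 2 were higher (Tnip3 and Ripk2) and the median was -2.46. Nfkbiz, a nuclear IkappaB protein, had a log2 fold change of -5.74 ± 0.18 and Irak3, a brake on the pathway, of -3.95 ± 0.09. Of 20 inflammasome and pyroptosis genes, 16 were lower and 3 were higher (Nlrp1a, Nek7 and Pycard), with a median of -1.52. Il18bp, the soluble inhibitor of interleukin 18, averaged 4.29 CPM with IL-4 and 228 CPM with LPS.

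Opsonin receptors were on the same side. Of 23 Fc gamma receptors and complement genes, 21 were lower with IL-4 and 2 higher, with a median of -1.76. Fcgr1, the high-affinity receptor for IgG, had 40.7, 38.2 and 38.3 CPM with IL-4, against 2000, 2270 and 2000 CPM with LPS, and unstimulated cells had 153, 150 and 154 CPM. The 3 groups did not overlap, and IL-4 was below LPS by a log2 fold change of -5.74 ± 0.10. C3, the central complement component, averaged 18.4 CPM with IL-4 and 1470 CPM with LPS, and Cfb, complement factor B, had no read with IL-4 and was at least 203-fold lower. Itgax, the integrin CD11c, was among the members higher with IL-4, at 1520 CPM with IL-4 and 110 CPM with LPS.

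C-type lectin receptors were split, with 6 of 19 higher, 11 lower and a median of -0.77. Mgl2, Clec10a and Mrc1 were on the IL-4 side. Clec4e, the receptor Mincle, averaged 1.53 CPM with IL-4 and 668 CPM with LPS, and Clec4n, the receptor dectin-2, 0.913 and 105 CPM. Scavenger and efferocytosis receptors were split as well, with 8 of 20 higher, 9 lower and a median of -0.39. Marco averaged 0.32 CPM with IL-4 and 345 CPM with LPS, a log2 fold change of -10.03 ± 0.26, and Msr1 287 and 1800 CPM. Of 17 chemoattractant receptors, 12 were lower with IL-4 and 2, Ccr2 and Cxcr2, were higher, with a median of -1.42. By library size alone 11 were lower and 5 higher. Cxcr2 was low and its libraries overlapped, at 3.06, 3.34 and 1.22 CPM with IL-4 and 1.42, 0.834 and 1.7 CPM with LPS. Fpr1 and Fpr2, receptors of formylated bacterial peptides, averaged 0.709 and 0.742 CPM with IL-4 and 299 and 208 CPM with LPS.

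**Figure D3:**
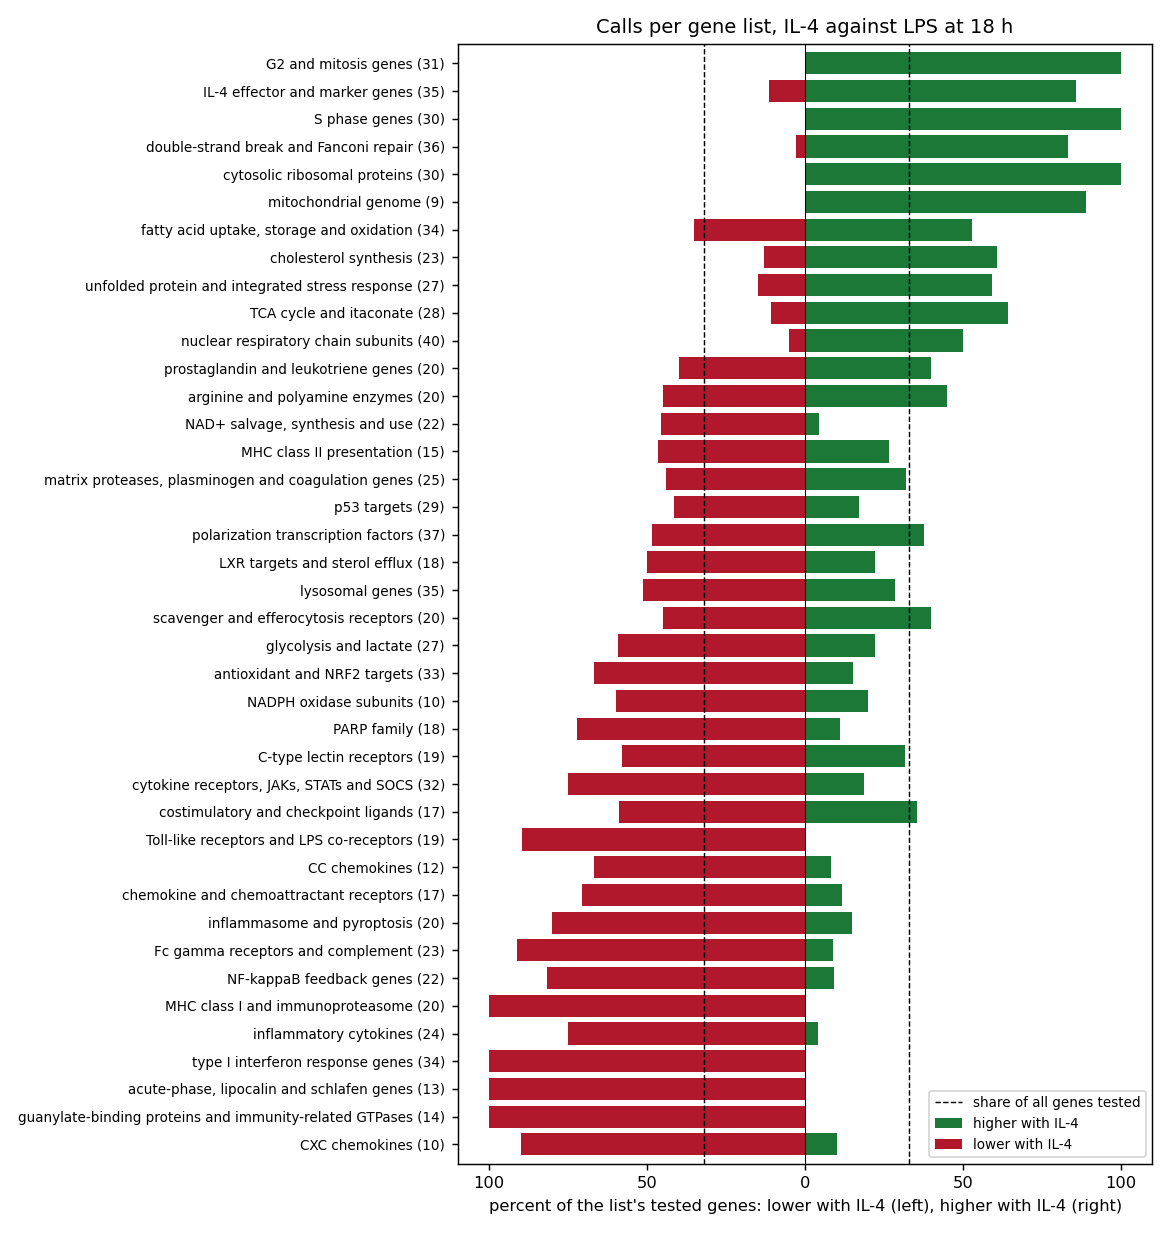
Percent of each list's tested genes that were higher with IL-4 (right, green) or lower (left, red) at 18 h, with the number tested in brackets and lists sorted by their median log2 fold change. Dashed lines are the shares over all 12765 genes, 32.9% and 32.1%. S phase, G2 and mitosis and ribosomal protein genes reach 100% on the right, and type I interferon, GTPase, MHC class I and acute-phase genes reach 100% on the left.

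Arginine stands at the centre of the classical contrast, since nitric oxide synthase and arginase use the same substrate. Among 20 arginine and polyamine enzymes, 9 were higher with IL-4 and 9 lower, with a median of -0.12 that became 0.24 with scaling by library size alone. Nos2, inducible nitric oxide synthase, had 0.278, 0.3342 and 0 CPM with IL-4, against 420.3, 382.5 and 328.3 CPM with LPS. IL-4 and unstimulated libraries overlapped for Nos2, and the log2 fold change of IL-4 over LPS was -10.61 ± 0.22 (adjusted p = 3e-22). Arg1, arginase 1, had 640.5, 630.5 and 585.4 CPM with IL-4, against 147, 178 and 194.8 CPM with LPS. Both groups stood far above unstimulated cells, at 0, 0.2983 and 1.097 CPM.

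The gene for Arg1 lies on the minus strand of chromosome 10, from 24915221 to 24927484 on GRCm38. It averaged 619 ± 29.3 CPM with IL-4 and 173 ± 24.3 CPM with LPS (SD, n = 3 each). The groups did not overlap, and IL-4 was higher by 1.84 ± 0.10 on the log2 scale (adjusted p = 1.5e-15). Against the same unstimulated libraries, the log2 increase was 10.29 ± 0.21 with IL-4 and 8.45 ± 0.23 with LPS. Arg2, the mitochondrial arginase, was on the other side, with 0.834, 0.4456 and 0.4581 CPM with IL-4, against 8.176, 7.296 and 10.21 CPM with LPS, a log2 fold change of -3.86 ± 0.38.

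Ass1, which rebuilds arginine from citrulline, had 11.12, 11.7 and 14.66 CPM with IL-4, against 514.9, 568.5 and 443.7 CPM with LPS and 6.434, 5.667 and 5.956 CPM in unstimulated cells. It was above the baseline in both groups and lower with IL-4 than with LPS by a log2 fold change of -5.36 ± 0.12. Slc7a2, the cationic amino acid transporter CAT2, had 367.4, 263.4 and 324.6 CPM with IL-4, against 796.8, 562.4 and 608.4 CPM with LPS and 12.19, 11.48 and 9.248 CPM in unstimulated cells. It too was raised by both, with LPS the higher (-1.04 ± 0.12, adjusted p = 1.4e-08). Gch1, which makes the cofactor of nitric oxide synthase, averaged 17.7 CPM with IL-4 and 107 CPM with LPS, with 18.2 CPM in unstimulated cells.

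Arg1 was 1 of 991 genes raised over unstimulated cells by both stimuli at 18 h (7.76% of the genes tested). IL-4 raised 2431 genes (19.0%) and LPS 4055 (31.8%), so the shared genes were 40.8% of those raised by IL-4 and 24.4% of those raised by LPS. Both comparisons use the same 3 unstimulated libraries. With scaling by library size alone the number raised by both was 447, and at an adjusted p below 0.01 it was 652. Of the 991, 113 were higher with IL-4 than with LPS, 448 were lower and 430 were not called, with a median of -0.18.

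A set of 137 genes (1.07%) rose at least 2-fold with each stimulus. Just inside the 2-fold limit lay Gm28592, Sh2b2 and Traf5, whose smaller log2 increases were 1.008, 1.015 and 1.026, and just outside it N4bp1, Chchd10 and Slc2a6 at 0.999, 0.994 and 0.992. In the direct comparison 29 of the 137 (21.2%) were higher with IL-4, 68 (49.6%) lower and 40 not called, beside 32.9% and 32.1% over all genes. The median log2 fold change was -0.48.

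**Figure D4:**
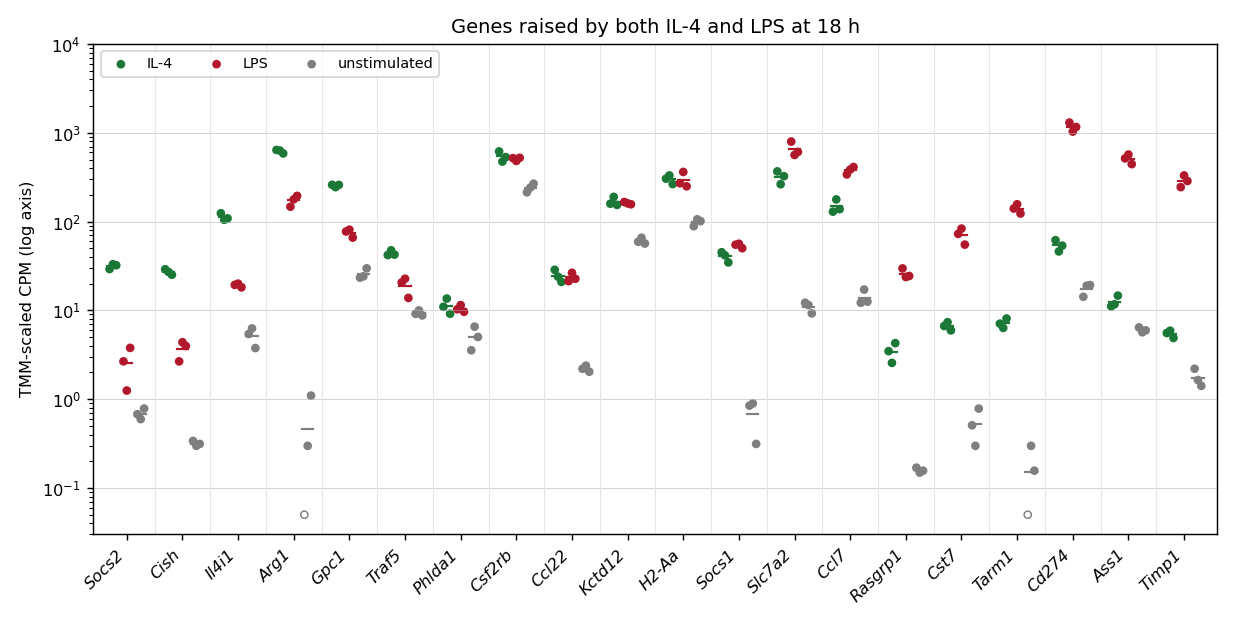
Level of 20 genes raised at least 2-fold by each stimulus at 18 h, in each of 3 libraries per group (TMM-scaled CPM, log axis), with IL-4 in green, LPS in red and unstimulated cells in grey; bars are means, and open circles at 0.05 are libraries with no read. Genes run from Socs2 and Cish, higher with IL-4 than with LPS, through those that were not called to Ass1 and Timp1, lower with IL-4.

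Among the 29 shared genes higher with IL-4 were Socs2 and Cish, inhibitors of cytokine signalling. Socs2, which damps receptors that use JAK2 and STAT5, had 29.19, 33.09 and 32.22 CPM with IL-4, against 2.666, 1.251 and 3.782 CPM with LPS and 0.6773, 0.5966 and 0.7837 CPM in unstimulated cells. Cish, of the same family, had 29.05, 27.07 and 25.19 CPM with IL-4, against 2.666, 4.378 and 3.972 CPM with LPS and about 0.317 CPM in unstimulated cells. The 3 groups were ordered alike for both genes, and IL-4 exceeded LPS by 3.59 ± 0.22 for Socs2 and by 2.89 ± 0.21 for Cish. Il4i1, a secreted amino acid oxidase, averaged 112 CPM with IL-4 and 19.2 CPM with LPS, higher by 2.55 ± 0.11. Gpc1, the cell-surface proteoglycan glypican 1, averaged 254 and 74.8 CPM, and Traf5, an adaptor of TNF receptors, 44 and 19 CPM.

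For other shared genes the level with IL-4 could not be told from that with LPS. Ccl22, a chemokine for type 2 helper T cells, had 28.63, 23.95 and 20.92 CPM with IL-4, against 21.33, 26.48 and 22.69 CPM with LPS and 2.201, 2.386 and 2.038 CPM in unstimulated cells. The stimulated libraries overlapped and the difference was 0.07 ± 0.15 (adjusted p = 0.7). H2-Aa, an alpha chain of MHC class II, had 304.1, 331.2 and 264.3 CPM with IL-4, against 270.2, 362.3 and 249.5 CPM with LPS and 88.73, 106 and 101.3 CPM in unstimulated cells, a difference of 0.03 ± 0.11 (adjusted p = 0.81). Csf2rb, the shared receptor chain for GM-CSF and interleukins 3 and 5, differed by 0.09 ± 0.12, Kctd12 by 0.06 ± 0.09, the scavenger-like protein Ssc5d by 0.00 ± 0.21 and Phlda1 by 0.13 ± 0.17. With scaling by library size alone, Ccl22, H2-Aa, Csf2rb, Kctd12 and Phlda1 were called higher with IL-4, and reads of Csf2rb may be shared with its close copy Csf2rb2.

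Socs1, the inhibitor of JAK kinases that both IL-4 and interferon signals induce, had 45.17, 41.67 and 34.66 CPM with IL-4, against 54.92, 56.29 and 50.12 CPM with LPS and 0.8466, 0.8948 and 0.3135 CPM in unstimulated cells. The stimulated groups did not overlap, with a log2 fold change of -0.40 ± 0.11 (adjusted p = 0.0018) that was -0.05 and not called with scaling by library size alone. Its promoter is shown because both stimuli raised it and the window held paired interferon elements. The capitals mark overlapping matches to the interferon element that begin 83 and 77 bases before the start, in chr16:10785564-10785659 on the minus strand.
Socs1: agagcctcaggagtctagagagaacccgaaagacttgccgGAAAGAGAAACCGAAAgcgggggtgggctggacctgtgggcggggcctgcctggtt
Of the 137 genes 97 were matched, with 131 windows. The interferon element letters were in 5.34% of these windows, beside 3.36% of the 11934 windows of all tested genes, and the kappaB letters in 9.16%, beside 6.31%. The STAT6-type letters were in 6.11%, beside 5.6%.

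Most of the shared genes with a difference were lower with IL-4. Cd274, the checkpoint ligand PD-L1, had 61.71, 46.12 and 53.6 CPM with IL-4, against 1303, 1032 and 1162 CPM with LPS and 14.22, 18.94 and 19.28 CPM in unstimulated cells. It rose with both, and IL-4 was below LPS by a log2 fold change of -4.44 ± 0.12 (adjusted p = 1.4e-23). Timp1, an inhibitor of matrix proteases, had 5.56, 5.905 and 4.886 CPM with IL-4, against 244.4, 331 and 286.3 CPM with LPS. Its log2 fold change was -5.70 ± 0.14, with 1.75 CPM in unstimulated cells. Ms4a4a, of the MS4A family of membrane proteins, averaged 24.5 CPM with IL-4, 374 CPM with LPS and 2.18 CPM in unstimulated cells.

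Tarm1, an activating receptor of myeloid cells, averaged 7.18 CPM with IL-4, 140 CPM with LPS and 0.152 CPM in unstimulated cells. Cst7, the protease inhibitor cystatin F, averaged 6.66, 70.4 and 0.53 CPM in the same order. Rasgrp1, an exchange factor for Ras, averaged 3.44 CPM with IL-4 and 25.9 CPM with LPS, and its ratios to unstimulated cells were 21.2 (6.98 to 105) with IL-4 and 165 (56.1 to 804) with LPS. These 3 genes were all close to 0 at baseline and were higher with LPS than with IL-4 in every library.

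Of 12 tested CC chemokines, 10 were raised by both stimuli, beside 7.76% of all genes. In the direct comparison 1 was higher with IL-4, 8 lower and 3 not called (Ccl22, Ccl6 and Ccl9), with a median of -1.29; by library size alone 4 were higher and 7 lower. Ccl7, a monocyte attractant, had 129.4, 177.5 and 138 CPM with IL-4, against 339.5, 385.7 and 411.5 CPM with LPS and 12.19, 17.15 and 12.54 CPM in unstimulated cells. It was lower with IL-4 by a log2 fold change of -1.35 ± 0.11, and Ccl2, the main monocyte attractant, averaged 171 CPM with IL-4, 838 CPM with LPS and 48.7 CPM in unstimulated cells. Ccl8 and Ccl12 had log2 fold changes of -4.70 ± 0.31 and -5.47 ± 0.18. The increase of Ccl8 with IL-4 over unstimulated cells rested on 15 reads against 2. Ccl5, which was not raised by IL-4, had 1.807, 1.114 and 0.7635 CPM with IL-4, against 3425, 4569 and 3267 CPM with LPS. Ccl24, an eosinophil attractant, had 1.807, 1.56 and 1.374 CPM with IL-4, against 0.1777, 0.4169 and 0.9456 CPM with LPS. It was higher by 1.60 ± 0.51 (adjusted p = 0.0074), and without LPS replicate 1 the difference was 1.17 and not called. The increase of Ccl24 with LPS over unstimulated cells rested on 8 reads against 0.

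Of 15 tested MHC class II genes, 7 were raised by both stimuli, beside 7.76% of all genes. In the direct comparison 4 were higher with IL-4, 7 lower and 4 not called, with a median of -0.18. The counts became 6 higher and 3 lower, and the median 0.17, with scaling by library size alone. Ciita, the master regulator of the class, had 36.28, 26.29 and 27.03 CPM with IL-4, against 3.732, 3.752 and 4.728 CPM with LPS and 4.064, 5.966 and 5.956 CPM in unstimulated cells. Only the IL-4 libraries stood apart, by 2.86 ± 0.18 over LPS (adjusted p = 1.3e-14). H2-Ab1, a beta chain, had 287.2, 304.5 and 287.8 CPM with IL-4, against 361.5, 501.4 and 328.5 CPM with LPS and 81.11, 84.11 and 86.37 CPM in unstimulated cells. Its log2 fold change of -0.44 ± 0.11 (adjusted p = 0.00099) was -0.07 and not called with scaling by library size alone. Ifi30, H2-DMa and H2-DMb1 were the others higher with IL-4, and March1, which removes class II molecules from the surface, was lower, at 53.4 CPM against 237 CPM with LPS. H2-Oa, also counted as lower, rested on 4 reads with IL-4 and 13 with LPS. The median of this list was 0.31 higher in LPS replicate 2 than in the other LPS libraries, and without replicates 2 of both groups 5 were higher and 6 lower.

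Costimulatory and checkpoint ligands had 6 of 17 higher with IL-4 and 10 lower, with a median of -1.27. Cd86, the ligand of CD28, averaged 2.74 CPM with IL-4 and 77.7 CPM with LPS, and Lgals9, galectin 9, 60.1 and 816 CPM. Among 32 cytokine receptors, JAKs, STATs and SOCS, 6 were higher and 24 lower, with a median of -0.81. Socs3, which damps gp130 receptors, had 1.668, 1.337 and 1.374 CPM with IL-4, against 489.5, 512.6 and 498 CPM with LPS. IL-4 and unstimulated libraries overlapped for Socs3, unlike those of Socs1, Socs2 and Cish. Stat6, which carries the IL-4 signal, averaged 224 CPM with IL-4 and 292 CPM with LPS, a log2 fold change of -0.38 ± 0.07 that was -0.02 with scaling by library size alone.

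The shared genes were then read at 1 h. The 1 h fold changes were not used to choose them, but the 1 h libraries entered the filter, the scaling and the spread. The 1 h reading was therefore not independent of the choice. Of the 137, 41 (29.9%) were higher with IL-4 than in unstimulated cells at 1 h, beside 3.22% of all genes, and 64 (46.7%) were higher with LPS, beside 10.8%. At 1 h 8 were lower with IL-4 and 3 were lower with LPS, where 3.27% and 11.4% of all genes were lower. Of the 991, 135 (13.6%) were higher with IL-4 at 1 h and 235 (23.7%) with LPS. Both 1 h comparisons share their unstimulated libraries.

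At 1 h Arg1 had 18.51, 20 and 21.57 CPM with IL-4, 0, 0.2246 and 0 CPM with LPS, and 0.2765, 0.2939 and 0.3755 CPM in unstimulated cells. The early increase with IL-4 was 5.91 ± 0.35 on the log2 scale (adjusted p = 9.2e-14), and the LPS libraries held 1 read in all, so no change could be measured there. Socs2 had a 1 h increase of 3.88 with IL-4 (adjusted p = 7.5e-12) and 0.02 with LPS (adjusted p = 0.99).

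Socs1 had 164.8, 153.5 and 155.3 CPM with IL-4 at 1 h, against 10.58, 8.533 and 10.26 CPM with LPS and 4.838, 2.498 and 3.567 CPM in unstimulated cells. It was raised by 5.42 ± 0.15 with IL-4 and by 1.41 ± 0.22 with LPS, while at 18 h the LPS libraries were the higher. Cish was raised to a like size by each stimulus, 4.96 ± 0.24 with IL-4 and 4.98 ± 0.25 with LPS, and Ccl7 by 4.29 ± 0.14 and 3.74 ± 0.14. Ccl22 had 2.961, 2.242 and 1.327 CPM with IL-4 at 1 h, 88.72, 65.57 and 88.56 CPM with LPS, and 3.732, 3.233 and 3.379 CPM in unstimulated cells. Only LPS raised it by then, by 4.54 ± 0.18 (adjusted p = 7.7e-19). Phlda1 and Kctd12 rose with LPS at 1 h, by 2.86 and 1.38, and fell with IL-4, by 1.05 and 0.43.

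**Figure D5:**
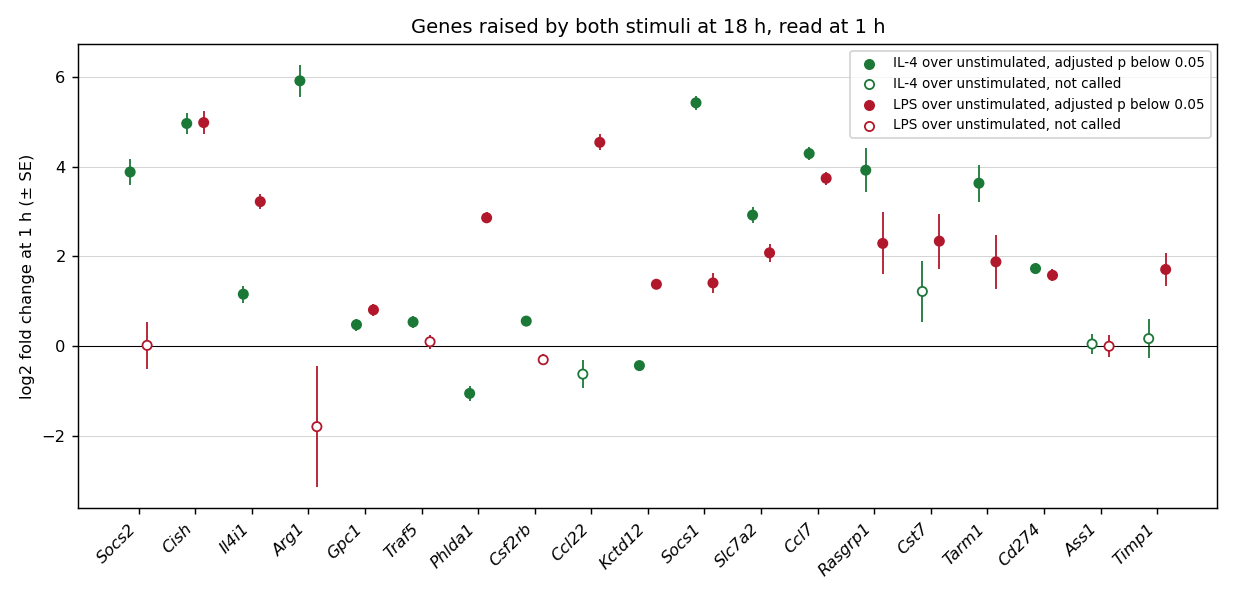
Log2 fold change at 1 h over unstimulated cells, with SE, for 19 genes raised at least 2-fold by both stimuli at 18 h; IL-4 in green and LPS in red, filled where the adjusted p was below 0.05. Arg1 and Socs1 have the highest IL-4 points, at 5.91 and 5.42, and Ccl22, Phlda1 and Kctd12 are above zero on the LPS points alone.

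Genes of NAD+ metabolism that were called were mostly lower with IL-4 under TMM scaling. Of 22 genes of NAD+ salvage, synthesis and use, 1 was higher with IL-4 and 10 lower, with a median of -0.14. With scaling by library size alone, 6 were higher and 8 lower, with a median of 0.22. Cd38, the surface hydrolase of NAD+, had 0.556, 0 and 0 CPM with IL-4, against 164.8, 157.8 and 170.8 CPM with LPS, a log2 fold change of -9.70 ± 0.26 (adjusted p = 2e-23). Bst1, its neighbour in family, averaged 9.63 CPM with IL-4 and 434 CPM with LPS. Nampt, which sets the pace of NAD+ salvage, had 119.7, 121 and 119.4 CPM with IL-4, against 353.2, 364.6 and 367.3 CPM with LPS and 101.3, 98.88 and 99.54 CPM in unstimulated cells. It was raised by both and lower with IL-4 than with LPS by a log2 fold change of -1.59 ± 0.07. Haao, of the kynurenine pathway, was the higher one, with a ratio of 7.26 (1.77 to 63.9) on 21 reads with IL-4 and 2 with LPS. It was not called without LPS replicate 1. Haao was not raised by IL-4, since it averaged 0.899 CPM with IL-4 and 1.86 CPM in unstimulated cells.

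Of 18 genes listed with the PARP family, 2 were higher with IL-4 and 13 lower, with a median of -0.69. Parp1, which responds to DNA breaks, had 154, 152.9 and 153 CPM with IL-4, against 69.32, 63.37 and 77.35 CPM with LPS and 196.6, 201 and 184.6 CPM in unstimulated cells. It was higher with IL-4 than with LPS by 1.13 ± 0.09, and below the baseline in both. Parp14, an interferon-linked member, had 77.98, 57.15 and 70.55 CPM with IL-4, against 1238, 928.9 and 1219 CPM with LPS, a log2 fold change of -4.05 ± 0.14. Adprhl2, which encodes an ADP-ribose hydrolase rather than a PARP, was the other listed gene higher with IL-4.

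Of 10 NADPH oxidase subunits, 6 were lower with IL-4 and 2, Hvcn1 and Rac1, were higher, with a median of -0.57. Cybb, the catalytic subunit, had 268.5, 217.8 and 260.5 CPM with IL-4, against 2449, 1974 and 2393 CPM with LPS and 471.2, 539.6 and 528.6 CPM in unstimulated cells. IL-4 was the lowest of the 3 groups and LPS the highest. Of 33 antioxidant genes and NRF2 targets, 22 were lower with IL-4 and 5 were higher (Mt1, Gclc, Tkt, Prdx3 and Gpx1), with a median of -0.55; by library size alone 17 were lower and 11 higher. Hmox1, which breaks down heme, had 613.4, 669.1 and 702.3 CPM with IL-4, against 5775, 6398 and 5053 CPM with LPS and 471.2, 475.5 and 490.2 CPM in unstimulated cells. It was raised by both, with a log2 fold change of -3.12 ± 0.08 between them, and Sod2, the mitochondrial superoxide dismutase, averaged 57.4 CPM with IL-4 and 1190 CPM with LPS. Cdkn1a, the cell cycle inhibitor p21, averaged 364 CPM with IL-4 and 792 CPM with LPS, with 229 CPM in unstimulated cells.

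Energy metabolism divided between the groups. Of 28 TCA cycle and itaconate genes, 18 were higher with IL-4 and 3 were lower (Acod1, Pcx and Slc25a1), with a median of 0.30. Idh2 and Idh3a, isocitrate dehydrogenases of mitochondria, averaged 116 and 77.3 CPM with IL-4, against 38.2 and 28.2 CPM with LPS. Nuclear-encoded subunits of the respiratory chain were higher in 20 of 40 cases and lower in 2, with a median of 0.23. Of the 40, 18 were raised by both stimuli with TMM scaling, beside 7.76% of all genes. By library size alone the number raised by both over all genes fell from 991 to 447. Its count in this list under that scaling is not given here. LPS replicate 2 lay 0.32 above the other LPS libraries in the median of this list. Without replicates 2 of both groups 22 were higher and 2 lower, with a median of 0.27. With scaling by library size alone, 38 of the 40 were higher and none lower, with a median of 0.59. Ndufs1, of complex I, averaged 94.7 CPM with IL-4, 55.6 CPM with LPS and 83.3 CPM in unstimulated cells. Of 9 genes of the mitochondrial genome, 8 were higher and mt-Co1 was not called, with a median of 0.65. Glycolysis and lactate genes had 6 of 27 higher and 16 lower, with a median of -0.49, or 10 higher and 12 lower by library size alone. Pfkfb3, which makes the activator of phosphofructokinase, averaged 39.7 CPM with IL-4 and 753 CPM with LPS, a log2 fold change of -4.25 ± 0.11.

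Lipid genes were mixed. Of 34 genes of fatty acid uptake, storage and oxidation, 18 were higher with IL-4 and 12 lower, with a median of 0.47. Lpl, lipoprotein lipase, averaged 7580 CPM with IL-4 and 1060 CPM with LPS, higher by 2.83 ± 0.07, with 7100 CPM in unstimulated cells. Acsl1, an acyl-CoA synthetase, was on the other side at 37.1 CPM with IL-4 and 926 CPM with LPS. Cholesterol synthesis genes were higher in 14 of 23 cases and lower in 3, with a median of 0.47, or in 20 and 0 by library size alone. Sqle, squalene epoxidase, averaged 35.8 CPM with IL-4 and 11.5 CPM with LPS. Of 18 LXR targets and sterol efflux genes, 4 were higher (Fasn, Scd2, Acaca and Srebf1) and 9 lower, with a median of -0.23, or 9 higher and 7 lower with a median of 0.13 by library size alone. Abca1, the cholesterol exporter, averaged 110 CPM with IL-4 and 694 CPM with LPS.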

How the data were processed

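RNA sequencing files of 24 libraries, 8 groups of 3, were used. The deposited files give, for 43629 Ensembl identifiers in every library, the raw counts of reads that the authors assigned to genes, and 42548 identifiers were matched to names of GENCODE M21. Alignment and counting tools named in the submitters' processing notes are STAR and featureCounts, beside deepTools and DESeq2, on the build GRCm38. Their versions, the strand setting and the handling of multi-mapped reads are not given in the sources used here. The kit kept the strand, per the labels. Reads of genes that overlap a gene on the other strand, among them Cish, Il4i1, Il1b, Cxcl10, Fn1, Map2 and Ciita, are uncertain.

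Counts were filtered with filterByExpr (minimum count 10; 12765 kept, 30864 not tested), then scaled by TMM, and 1 model with a term for each of the 8 groups was fitted in edgeR 4.0.16 (R 4.3.3; common biological coefficient of variation 0.0736). Quasi-likelihood tests were two-sided with Benjamini-Hochberg adjustment, and genes with an adjusted p below 0.05 count as called. Fold changes are IL-4 minus LPS on the log2 scale, and SE is the fold change divided by the root of F. Where a group had no read, a floor of 3 counts summed over its libraries gave the smallest fold possible. Where it had 1 to 3 reads, the ratio of reads is given with its exact binomial 95% interval. Both reflect counting error alone. Whether replicates were separate animals or cultures is not in the labels, and the p-values measure the spread between these libraries only, which may be technical.

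The comparison, the 40 gene lists and the tests were chosen with earlier results of these data known, and lists are described by counts and medians without a test. Of 1015 listed symbols 948 were tested. Named genes were the 12 with the largest increase and the 12 with the largest decrease (called, mean of at least 5 CPM, no overlap, with a symbol), up to 4 members of each list with the largest change, a fixed set of polarization, NAD+, oxidant and cell cycle genes, and the shared genes with the largest increase, the largest difference or the smallest uncalled difference. Members named only to resolve a small count were chosen after their values were seen. A few genes that these rules name are not reported here. A gene was raised by both if it was called higher with each stimulus over unstimulated cells.

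Deviations of same-numbered IL-4 and LPS libraries correlated at 0.15, 0.43 and 0.13 across genes, though IL-4 replicate 1 with LPS replicate 3 gave 0.21 and IL-4 replicate 3 with LPS replicate 1 gave 0.13. The labels do not say that the numbers pair them. Other settings tried were scaling by median of ratios or by library size, DESeq2, limma-voom, no count filter, a fit of the compared groups only, a replicate block, a threshold of 0.01, and leaving out each replicate or replicates 2 of both groups. The fit was also run on simulated counts in which few genes were changed. It called 51 of 67 genes changed 1.5-fold, and 9 of its 191 calls were false. The changed genes were drawn only from genes with higher expected counts, so recovery at low counts was not tested. In the data 65.0% of genes differed, so the simulation does not test the scaling under such a shift.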

Additional observations from a re-analysis of the deposited data

Results flagged for a closer look

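The naming rules above gave 4 genes, raised at least 2-fold by both stimuli at 18 h, that changed sides between the times. Every library of a stimulus lay below every unstimulated library at 1 h and above every unstimulated library at 18 h. Hmox1 with each stimulus and March1 with LPS, both raised less than 2-fold by IL-4, showed the same order. Their log2 changes at 1 h were -0.31 with IL-4 and -0.11 with LPS (not called) for Hmox1, and -0.63 with LPS for March1. The difference between the times was not tested. Phlda1 with IL-4 had a log2 change of -1.05 at 1 h (7.65, 5.518 and 7.964 CPM, against 15.07, 15.87 and 13.14 CPM unstimulated) and 1.16 at 18 h. Kctd12 with IL-4 had -0.43 at 1 h (69.96, 61.56 and 74.99 CPM, against 90.82, 88.16 and 99.12 CPM unstimulated) and 1.47 at 18 h. Ccl22 with IL-4 had -0.62 at 1 h, which was not called, on 45 reads in all against 67 in unstimulated libraries, and 3.46 at 18 h. Arg1 with LPS had a fitted change of -1.79 at 1 h, not called and resting on 1 read against 6, and 8.45 at 18 h.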

How the results depend on the processing

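Only scaling by library size alone and the stricter threshold moved a count over all genes by more than 1.5 times. With library size alone 6672 genes were higher with IL-4, 2360 lower, 2866 at least 2-fold higher and 447 raised by both; at an adjusted p below 0.01 the last was 652. Leaving out an IL-4 or LPS replicate gave 3918 to 4103 higher, 3851 to 4074 lower, 1812 to 1881 at least 2-fold higher, and 1612 to 1723 at least 2-fold lower. Leaving out a replicate of these or of the unstimulated 18 h cells gave 829 to 1040 raised by both and 124 to 149 raised at least 2-fold, of which 28 to 32 were higher with IL-4 and 61 to 73 lower. Library size alone ended the calls of Socs1, H2-Ab1, Stat6 and H2-Oa and called Ccl22, Csf2rb, H2-Aa, Kctd12 and Phlda1 higher with IL-4. H2-Oa, on 4 reads with IL-4 and 13 with LPS, lost its call in 7 settings, library size among them. It turned the median from negative to positive in the lists of arginine enzymes, MHC class II, polarization factors, p53 targets, NAD+, LXR targets, lysosome and matrix genes. Ccl24 and Haao were not called without LPS replicate 1. The replicate block gave 4215 higher and 4027 lower and changed no call of a named gene it could fit. Replicates 2 of both groups stood furthest from their groups, and without them 3937 genes were higher and 3832 lower. At this depth genes under the count filter, Ccl17 among them, could not be tested.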

Other observations

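Prostaglandin and leukotriene genes were split, with 8 of 20 higher with IL-4, 8 lower and a median of 0.13 on the log2 scale, or 11 higher and 5 lower by library size alone. Ptgs1, the constitutive cyclooxygenase, averaged 39.8 CPM with IL-4 and 0.52 CPM with LPS, whereas Ptgs2, the inducible one, averaged 1.9 CPM with IL-4 and 49.2 CPM with LPS. Ptges, which makes prostaglandin E2, averaged 1.08 and 271 CPM, and Hpgd, which degrades prostaglandins, was higher with IL-4 by a ratio of 31.5 (8.46 to 264). Of 27 genes of the unfolded protein and integrated stress response, 16 were higher and 4 lower (Xbp1, Ern1, Trib3 and Ddit3), with a median of 0.34, or 21 higher and 1 lower by library size alone. The enzymes of serine synthesis led that list, with Phgdh at 68.8 CPM with IL-4 and 2.81 CPM with LPS and Psat1 at 237 and 14.9 CPM.

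Of 35 lysosomal genes, 10 were higher with IL-4 and 18 lower, with a median of -0.31, or 17 higher and 11 lower with a median of 0.05 by library size alone. Atp6v0d2, a proton pump subunit, averaged 848 CPM with IL-4 and 136 CPM with LPS, and Ctsc, which activates serine proteases, 69.3 and 1010 CPM. Of 25 genes of matrix proteases, plasminogen and coagulation, 8 were higher and 11 lower, with a median of -0.19 (0.14 with scaling by library size alone). Thbs1, thrombospondin 1, averaged 8.23 CPM with IL-4 and 1790 CPM with LPS, and Mmp14, a membrane-bound protease, 3.79 and 541 CPM.

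Macrophages given LPS with interferon gamma for 18 h were set against no other group here, though their libraries entered the filter, the scaling and the spread. In them Arg1 was at 16.92, 23.33 and 17.8 CPM, Socs1 at 565.1, 551.9 and 511.5 CPM and Cd274 at 4713, 4767 and 4846 CPM. Ccl22 was at 56.82, 57.47 and 54.35 CPM in those libraries and H2-Aa at 962.9, 1098 and 909 CPM.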
